A study of Bos taurus with 3 samples.

Results

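The cytotoxic effector genes CTSW, NKG7, KLRK1, GNLY, GZMA, GZMB and PRF1 were taken by their symbol in the gene lists that come with the count matrices. These 7 symbols matched 8 of 27270 genes, since GZMB is the symbol of both ENSBTAG00000053015 and ENSBTAG00000010057. The rule itself used no measured value, though earlier results of these data were known when the genes were chosen. Rumen tissue was taken from 3 newborn calves of dairy cattle 1 day after birth, and its dissociated cells were sequenced in droplets with 3' chemistry, with a single library for each calf. The molecules counted are unique molecular identifiers (UMIs), in which copies of a captured RNA made by PCR are collapsed, so that each molecule counts once whatever the length of its gene. The calves formed a single group without a treatment, and the adult libraries of the study were not analysed here.

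Cytotoxic lymphocytes store proteins in granules and release them onto a target cell. PRF1 (perforin) opens pores in the target membrane, the granzymes GZMA and GZMB are serine proteases that then act inside the target, and GNLY (granulysin, in cattle a family of NK-lysin peptides) disrupts membranes. NKG7 is a membrane protein of the granules, CTSW (cathepsin W) is a cysteine protease found mainly in natural killer cells and cytotoxic T cells, and KLRK1 (NKG2D) is an activating receptor that senses ligands of stressed cells.

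The 3 libraries held 31228 barcodes. Of these, 4886 in calf 1, 10654 in calf 2 and 10480 in calf 3 stayed within 500 to 4000 genes, 50000 UMIs and a mitochondrial share of 40%, with 53934101, 81460728 and 86929291 UMIs. A barcode was called a lymphocyte if it had a UMI of CD3E, CD52 or PTPRC and under 30 BOLA-DRA UMIs per 10000. This gate alone took 829 barcodes. Of these, 472 exceeded a limit on keratin, collagen or endothelial transcripts, 394 of them the keratin limit, and 391 of the 472 had entered through CD52 only. With all 472 left out, 357 lymphocytes remained, 6 in calf 1, 28 in calf 2 and 323 in calf 3. Of these 357, 51 had also entered through CD52 only, 46 of them in calf 3. Dendritic cells, with at least 30 BOLA-DRA UMIs per 10000, a dendritic marker and little C1Q, numbered 1, 12 and 270. Every result in lymphocytes therefore rests mostly on calf 3. Median depths were 3887.5, 2563 and 2656 UMIs in the lymphocytes of calves 1, 2 and 3 against 10500, 7093.5 and 7127 UMIs in the dendritic cells, so shares of cells were compared after thinning each cell at random to 2000 UMIs. After thinning 4, 18 and 253 lymphocytes and 1, 12 and 265 dendritic cells were left. Calf 3 alone passed the minimum of 20 thinned lymphocytes, so shares are given per calf with exact 95% intervals, which cover counting error only, and not as a mean over calves. Between the libraries 21, 29 and 37 barcodes were shared by pairs of calves, and none of them was a lymphocyte in both.

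Markers that set no gate were checked against the class names. CD3D had 0, 15 and 203 UMIs in the lymphocytes of calves 1, 2 and 3 and 0, 0 and 1 in the dendritic cells. CST3, a gene of antigen-presenting cells, reached 125, 131 and 172 UMIs per 10000 in the dendritic cells against 3.74, 1.60 and 3.92 in the lymphocytes. CD3E, BOLA-DRA and dendritic markers set the gates, so both differences follow in part from them. Lymphocytes were not T cells only. B and plasma cell markers summed to 0, 0.114 and 9.85 UMIs per 10000 in calves 1, 2 and 3, where JCHAIN, the joining chain of secreted antibodies, had 855 UMIs in 5.26% of the lymphocytes of calf 3. ITM2C, which the study used among its markers of plasmacytoid dendritic cells, was found in 15.4% of the thinned lymphocytes of calf 3. Whether such cells passed the lymphocyte gate was not tested. In calf 1 the marker FCN1, a gene of monocytes and neutrophils, had 67 UMIs in its 6 lymphocytes, neutrophil and mast cell markers summed to 29.9, 10.4 and 4.30 UMIs per 10000 in calves 1, 2 and 3, and 7 of 9 T cell markers were at 0 in calf 1. The part of these other cells in the results was not tested.

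CTSW was the effector gene found in the most lymphocytes of calves 2 and 3 and was not found in dendritic cells. Its UMIs in lymphocytes were 7, 81 and 543 in calves 1, 2 and 3, which is 2.62, 9.25 and 5.07 UMIs per 10000, against 0 in the dendritic cells of each calf. The 1 dendritic cell of calf 1 had 10500 UMIs, so its 0 allows up to 2.86 UMIs per 10000, above the lymphocyte level of that calf, and calf 1 does not show a direction for CTSW or for any gene below that level. Unthinned, 2 of 6, 19 of 28 (67.9%, interval 47.6 to 84.1) and 133 of 323 lymphocytes (41.2%, interval 35.8 to 46.8) had a CTSW UMI. At 2000 UMIs the shares were 12 of 18 in calf 2 and 96 of 253 (37.9%, interval 31.9 to 44.2) in calf 3. No CTSW UMI was found in any of the 356 immune barcodes above the BOLA-DRA limit, dendritic or other, which allows a share of up to 0.843% of barcodes with a UMI, by counting error over the pooled calves, and sets no limit on cells that express the gene. Epithelial cells, which should lack these genes, were barcodes at or over the keratin limit with no CD3E, CD52 or PTPRC UMI. They had median depths of 6849.5 to 10332 UMIs, and 10 of 22085 cells (0.0453%) had a CTSW UMI. Keratin-bearing barcodes with an immune UMI were left out of this class by its gate. The share is therefore not that of all keratin-bearing barcodes. Lymphocytes held 631 of the 735 CTSW UMIs within the limits (85.9%), and 93 of the rest lay in the barcodes left out for keratin, collagen or endothelial transcripts. Where CTSW was present it was often more than a stray molecule: its 133 positive cells of calf 3 had a median of 3 UMIs and a highest value of 34, and 42 of them had 5 or more.

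KLRK1 was nearly limited to lymphocytes as well, at a lower level. Lymphocytes had 1, 4 and 74 KLRK1 UMIs in calves 1, 2 and 3, or 0.374, 0.457 and 0.690 per 10000, and dendritic cells had 0, 0 and 1. Calves 2 and 3 were higher in lymphocytes, and in calf 1, with 1 molecule against a single dendritic cell, the direction cannot be told. Thinned, 1 of 18 lymphocytes of calf 2 and 33 of 253 of calf 3 (13.0%, interval 9.15 to 17.8) were positive. Of 8 ligand genes listed for the receptor, 2 were in the matrices, ULBP21 and RAET1G, and neither was among the genes tested. Both had 0 UMIs in lymphocytes. RAET1G was found at 0.113 and 0.0105 UMIs per 10000 in the dendritic cells of calves 2 and 3. It was at 0.829 in the other immune barcodes of calf 1 above the BOLA-DRA limit. The ligands were not examined in epithelial cells.

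PRF1 was present in the lymphocytes of every calf. It had 2, 12 and 98 UMIs in lymphocytes, or 0.748, 1.37 and 0.914 per 10000, and 0, 0 and 1 UMI in dendritic cells. Unthinned, 8 of 28 lymphocytes of calf 2 and 64 of 323 of calf 3 had a PRF1 UMI (19.8%, interval 15.6 to 24.6). After thinning these were 4 of 18 and 35 of 253 (13.8%, interval 9.83 to 18.7). Most positive cells carried little of it, with 1 UMI in 47 of the 64 cells.

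GNLY and GZMB were found in few cells, some of which carried many molecules. GNLY had 0, 14 and 93 UMIs in the lymphocytes of calves 1, 2 and 3 and 0, 0 and 3 in the dendritic cells. In calf 3 these were spread over 23 lymphocytes, of which the top 5 held 69.9% of the UMIs and the highest 20. GZMB, summed over its 2 genes, had 0, 10 and 76 UMIs in lymphocytes and 0, 0 and 2 in dendritic cells. In calf 3 it was found in 32 lymphocytes (9.91%, interval 6.88 to 13.7), and the top 5 held 48.7% of its UMIs. In calf 2 all 14 GNLY and all 10 GZMB UMIs came from the same cell, which had 1101 UMIs in total and was thus lost on thinning, so the level of both genes in that calf is the level of 1 cell. Thinned, GNLY and GZMB were each found in 17 of 253 lymphocytes (6.72%, interval 3.96 to 10.5).

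The 2 GZMB genes were not found alike in all calves. ENSBTAG00000053015 had 0, 10 and 40 UMIs in lymphocytes and ENSBTAG00000010057 had 0, 0 and 36, with at most 4 and 11 UMIs in 1 cell of calf 3. Genes that share a symbol, and the NK-lysin family that GNLY belongs to, can share reads with near-identical copies, so the split between the GZMB genes and the level of GNLY are uncertain. GZMA was nearly absent. It had 0, 0 and 10 UMIs in lymphocytes, all in 6 cells of calf 3, and none in dendritic cells.

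**Figure D1:**
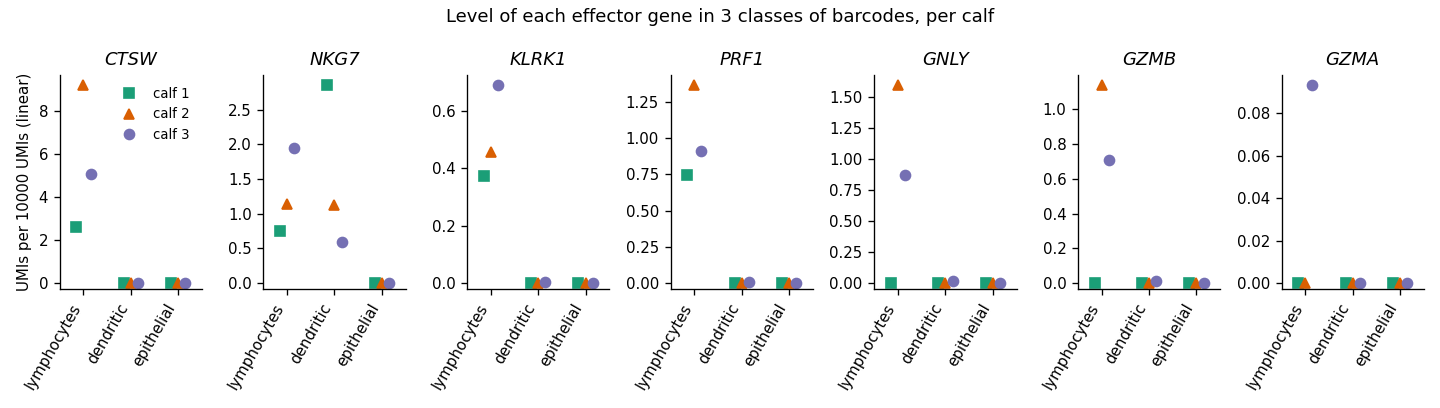
Each panel plots 1 effector gene as UMIs per 10000 UMIs of the summed cells (linear axis, 0 at the bottom, its own scale in each panel) in the lymphocytes, dendritic cells and epithelial cells of each calf, 1 point per calf. For CTSW, KLRK1 and PRF1 calves 2 and 3 were higher in lymphocytes and the 0 of calf 1 comes from 1 dendritic cell, while the NKG7 points of lymphocytes and dendritic cells overlap, and the 1 dendritic cell of calf 1 gives the highest NKG7 level.

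NKG7 was the exception among the 7 genes, since it was also found in dendritic and other BOLA-DRA-high cells. Its UMIs in lymphocytes were 2, 10 and 209 in calves 1, 2 and 3, or 0.748, 1.14 and 1.95 per 10000. Dendritic cells had 3, 10 and 112 UMIs, or 2.86, 1.13 and 0.588 per 10000. The groups overlap: the level in lymphocytes was above that in dendritic cells in calf 3, with a ratio of 3.32 (95% counting interval 2.63 to 4.21), about equal in calf 2, with a ratio of 1.01 (interval 0.378 to 2.71), and below it in calf 1, where the dendritic value comes from 1 cell. Thinned, 72 of 253 lymphocytes (28.5%, interval 23.0 to 34.4) and 26 of 265 dendritic cells (9.81%, interval 6.51 to 14.0) of calf 3 had an NKG7 UMI, and in calf 2 these were 5 of 18 and 3 of 12.

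Among immune barcodes above the BOLA-DRA limit, NKG7 was frequent in those with C1Q transcripts, which are typical of macrophages. At 10 or more C1Q UMIs per 10000, NKG7 was found in 16 of 19 barcodes of calf 2 (84.2%, interval 60.4 to 96.6) and 25 of 34 of calf 3 (73.5%, interval 55.6 to 87.1). At 2000 UMIs it was found in 9 of 19 and in 16 of 33 (48.5%, interval 30.8 to 66.5). Its level there was 2.60 and 5.12 UMIs per 10000 in calves 2 and 3, above the 1.14 and 1.95 of lymphocytes. In calf 1 it was found in 1 of 2 such barcodes, at 0.829 per 10000 against 2.86 in its dendritic cell. A further group had little C1Q and no UMI of FCER1A, CD1E, BATF3, DNASE1L3, XCR1 or CLEC9A. There NKG7 was found in 2 of 2 barcodes of calf 2, at 4.57 per 10000. In calf 3 it was found in 4 of 30 of them (13.3%, interval 3.76 to 30.7), at 0.537 per 10000. CTSW was at 0 in all of these barcodes. This split was made after the values of NKG7 in dendritic cells had been seen, and no test was run on it. Of the 629 NKG7 UMIs within the limits, 35.1% fell in lymphocytes, 19.9% in dendritic cells and 23.4% in the other BOLA-DRA-high barcodes, while the share in lymphocytes was 71.4% to 87.8% for the other 6 genes. Epithelial cells, whose gate left out barcodes with a CD3E, CD52 or PTPRC UMI, had an NKG7 UMI in 23 of 22085 barcodes (0.104%).

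**Figure D2:**
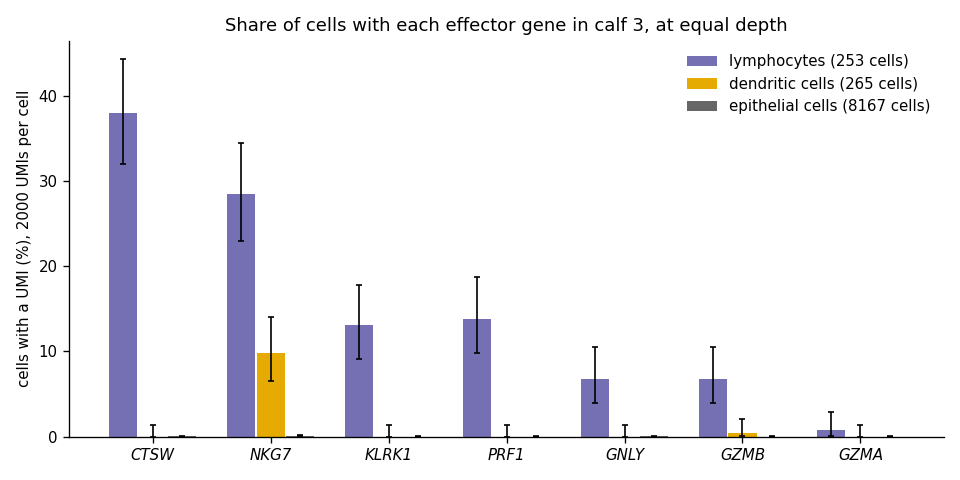
Share of cells of calf 3 with a UMI of each effector gene after thinning to 2000 UMIs per cell, in lymphocytes, dendritic cells and epithelial cells; bars start at 0 and the error bars are exact 95% intervals for counting error. CTSW was found in 37.9% of lymphocytes and in no dendritic cell, and NKG7 in 28.5% and 9.81%.

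To compare the classes over animals, UMIs were summed per calf and class and compared by the quasi-likelihood test of edgeR, in which each calf was a block. Of 9863 genes tested, 7.38% passed an adjusted p of 0.05 4.23% as higher and 3.15% as lower in lymphocytes. All 8 genes of the effector group could be tested, and 6 of them were higher in lymphocytes, namely CTSW, KLRK1, PRF1, GNLY and both GZMB genes. NKG7 and GZMA did not pass. CTSW and GZMA had no dendritic UMI, so they entered the test through their lymphocyte UMIs alone and could not come out lower. Since dendritic cells had 0 to 3 UMIs of each of the 8 genes but NKG7, sizes are given as ratios of the pooled levels. Where dendritic cells had none, the ratio is against a floor of 3 UMIs over all of them. Such bounds, here and below, allow for the 0 of dendritic cells only. They take the lymphocyte UMIs as exact, so they are loose where these are few. CTSW was at least 356-fold higher in lymphocytes (edgeR adjusted p = 1.141e-25, higher in calves 2 and 3). PRF1 was 189-fold higher (counting interval 33.3 to 7544, edgeR adjusted p = 2.678e-13, higher in calves 2 and 3). KLRK1 was 134-fold higher (interval 23.3 to 5340, edgeR adjusted p = 8.129e-10, higher in calves 2 and 3). GNLY was 60.3-fold higher (interval 20.1 to 297, edgeR adjusted p = 1.129e-11, higher in calves 2 and 3). GZMB was 72.7-fold higher over both genes (interval 19.5 to 609.8), with edgeR adjusted p-values of 6.144e-07 for ENSBTAG00000053015 and 0.0004322 for ENSBTAG00000010057. GZMA was 5.63-fold above the floor by its 10 pooled UMIs, all of calf 3, but did not pass (edgeR adjusted p = 0.1897). For NKG7 the fitted log2 difference was 1.09 ± 0.51 (SE, edgeR adjusted p = 0.2497), against a median of 0.11 over all genes tested.

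Calf 3 carried most of these calls. Without it 5 of the 8 genes could be tested and CTSW alone stayed past the threshold (edgeR adjusted p = 0.000235), with GNLY, PRF1 and GZMB ENSBTAG00000053015 at 0.4064, 0.356 and 0.7236. Their fitted log2 differences were then 6.07, 5.96 and 5.59, against 5.88, 7.14 and 5.96 with all calves. Without calf 1, whose dendritic class is 1 cell, NKG7 passed as higher in lymphocytes (log2 difference 1.39, edgeR adjusted p = 0.008474).

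Effector genes were found together in the same lymphocytes. In calf 3, 144 of 253 thinned lymphocytes (56.9%, interval 50.6 to 63.1) had at least 1 of the 7 genes, 81 (32.0%, interval 26.3 to 38.1) at least 2, 36 (14.2%) at least 3 and 10 (3.95%) at least 4, and the most in 1 cell was 5. In calf 2 13 of 18 had at least 1 and 7 of 18 at least 2. Of the dendritic cells of calf 3, 27 of 265 had at least 1 gene and none had 2. Unthinned, 125 of 323 lymphocytes and 2 of 270 dendritic cells of calf 3 had at least 2.

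For each of the 21 pairs of genes, the lymphocytes of calf 3 with both were set against the number expected if the genes were spread independently over the 253 cells. All 10 pairs with 3 or more expected cells were seen more often than that, by 1.40 to 1.92 times. CTSW and NKG7 were together in 47 cells against 27.3 expected, CTSW and KLRK1 in 24 against 12.5, and CTSW and PRF1 in 24 against 13.3. Of the KLRK1-positive cells 72.7% also had CTSW, and of the PRF1-positive cells 68.6%. GNLY and GZMB met in 1 cell against 1.14 expected, and GNLY and KLRK1 in none against 2.22, or unthinned in 2 against 3.92, numbers too small to tell from independence. GNLY and PRF1 were together in 7 cells against 2.35, and both thinned GZMA cells had PRF1. The cells of 1 calf are not replicates, so these counts are a description. The 253 cells also include the B, plasma and other cells seen in the marker check. The counts therefore do not separate genes joined within 1 kind of cell from genes found in the same kind. The part of this mixture in the excess was not tested. At 1000 UMIs per cell 9 of the 10 pairs stayed above expectation, and CTSW with GZMB did not.

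**Figure D3:**
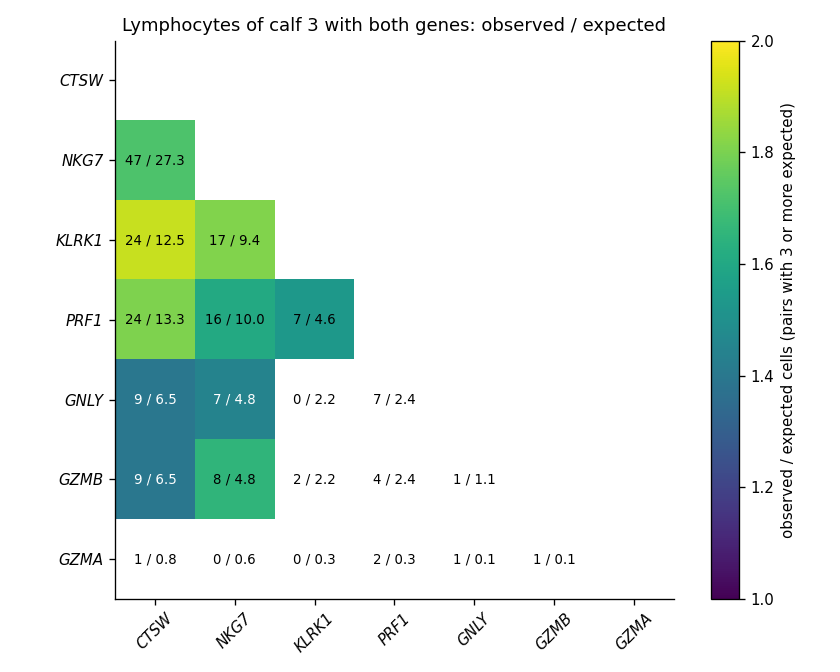
Lymphocytes of calf 3 thinned to 2000 UMIs (253 cells) that had both genes of a pair. Each cell of the plot gives observed and expected cells, and the colour scale gives their ratio for the 10 pairs with 3 or more expected, from 1.40 to 1.92.

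The lymphocytes that carried these genes were of more than 1 kind. T cells carry the CD3 complex at their surface, of which CD3E is a part. A further split used ENSBTAG00000055197, a gene the files list without a symbol. The study names a bovine homolog of TRDC, the constant part of the T cell receptor delta chain, and this gene was taken for it when the split was chosen, but no annotation used here pairs the ID with that name. In calf 3, 132 thinned lymphocytes had a CD3E UMI and 121 had none, and an absent UMI of a gene as sparse as CD3E does not show that a cell lacks it. CTSW was found in 49 of the 132 with CD3E (37.1%, interval 28.9 to 46.0) and 47 of the 121 without (38.8%, interval 30.1 to 48.1), with intervals that overlap. GZMB was found in 15 of the 132 cells with CD3E (11.4%, interval 6.50 to 18.1) and in 2 of the 121 without (1.65%, interval 0.201 to 5.84). In calf 2 CTSW was found in 8 of 9 cells with CD3E and in 4 of 9 without, and the direction for GZMB was the opposite, since the cell that held all 10 of its UMIs had no CD3E UMI.

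ENSBTAG00000055197 divided these cells further. Of 34 cells of calf 3 with ENSBTAG00000055197 but no CD3E UMI, 24 had CTSW (70.6%, interval 52.5 to 84.9) and 10 had KLRK1 (29.4%). Of 33 cells with both genes, 6 had CTSW (18.2%, interval 6.98 to 35.5) and 2 had KLRK1. All 15 CD3E-positive cells with GZMB were among the 99 without ENSBTAG00000055197, and none of the 67 cells with it had GZMB. Unthinned this did not hold, as 2 of 94 cells with ENSBTAG00000055197 in calf 3 had 3 GZMB UMIs between them, against 30 of 229 cells without it, and in calf 2 the cell with all 10 GZMB UMIs carried ENSBTAG00000055197. In calf 2 the groups are too small to compare, but 3 of 5 cells with ENSBTAG00000055197 and no CD3E had CTSW, and the 1 cell with both did not. Unthinned, CTSW was at 6.78 UMIs per 10000 in the 4 cells of calf 2 with both genes and at 7.17 in the 6 with ENSBTAG00000055197 only. In calf 3 the same unthinned levels were 1.98 and 12.5. The thinned cells of calf 2 thus went the way of calf 3 and its unthinned levels were about equal. With so few cells calf 2 does not decide whether the difference is repeated.

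CD8A, a coreceptor of cytotoxic T cells, was found in 21 thinned lymphocytes of calf 3. Of these 17 had CTSW (81.0%, interval 58.1 to 94.6), 9 had PRF1, 8 had NKG7, 6 had KLRK1 and 3 had GZMB. CD4, the coreceptor of helper T cells, was found in 14 cells, of which none had CTSW, NKG7, KLRK1 or GZMB and 1 each had PRF1 and GNLY. These zeros hold at 2000 UMIs only: unthinned, 4 of 25 CD4-positive cells had NKG7, and 1 each had CTSW, GZMB and GZMA. Of 29 cells with IL17A or IL17F, cytokines of type 17 lymphocytes, 7 had CTSW, 7 had NKG7 and none had KLRK1. In calf 2 4 of 6 such cells had CTSW. Of 21 cells with CD79A, a B cell receptor gene, 1 had CTSW, none had NKG7 and 3 had GNLY, and unthinned 5 of 37 had CTSW and 6 of 37 had NKG7. Of 17 cells with MKI67, a gene of dividing cells, 6 had CTSW.

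**Figure D4:**
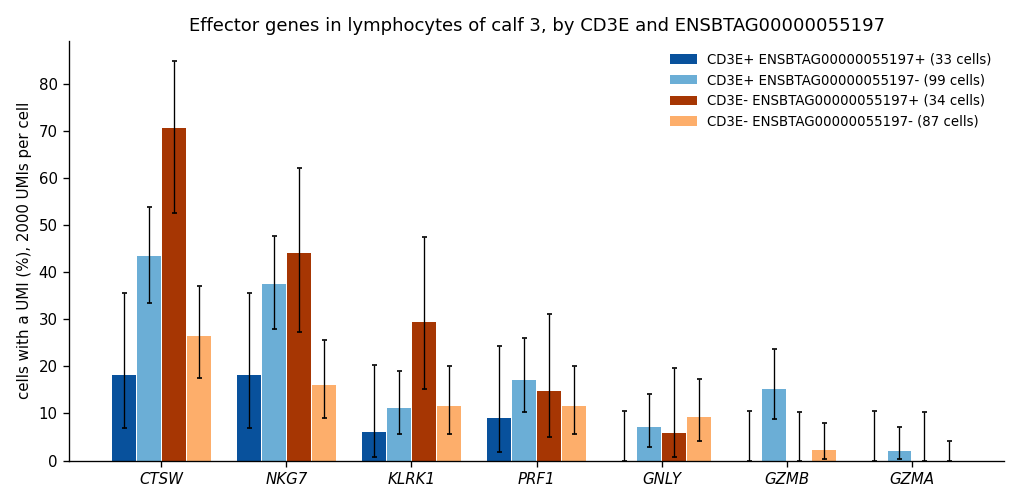
Share of thinned lymphocytes of calf 3 with a UMI of each effector gene, split by a UMI of CD3E and of ENSBTAG00000055197; bars start at 0 and error bars are exact 95% intervals for counting error. CTSW was highest in the 34 cells with ENSBTAG00000055197 and no CD3E UMI (70.6%), and at this depth GZMB was found in none of the cells with ENSBTAG00000055197 in calf 3.

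The 96 CTSW-positive lymphocytes of calf 3 were split by CD3E into 49 with and 47 without a UMI, after their values had been seen. Both groups had NKG7 (49.0% and 48.9%) and PRF1 (24.5% and 25.5%). The group without CD3E more often had FCER1G, a signalling adaptor of natural killer and myeloid cells (63.8%, interval 48.5 to 77.3, against 8.16%, interval 2.27 to 19.6), and the killer cell receptor gene KLRB1 (46.8%, interval 32.1 to 61.9, against 4.08%, interval 0.498 to 14.0). It also more often had the chemokine XCL1, in 25.5% against 2.04% of cells, while for KLRK1, at 36.2% against 14.3%, the intervals overlap. NCR1, a receptor that marks natural killer cells, was found in 5 of 47 and 1 of 49 cells. Of the genes named here, FCER1G and NCR1 belong to a list of 7 natural killer markers. The others, KLRD1, KLRF1, NCR3, FCGR3A and TYROBP, were counted in the same split but their shares are not given in the text. The named genes therefore do not stand for the list. Against dendritic cells 3 of the 7 were higher in lymphocytes and 1 lower, beside 4.23% and 3.15% of all genes tested. FCER1G did not pass there (log2 difference -0.12, edgeR adjusted p = 0.9911). The group with CD3E more often had CD3D (36.7% against 4.26%). CD8B (30.6% against 8.51%) and GZMB, in 8 of its 49 cells against 1 of 47, had intervals that overlap. IFNG, the cytokine interferon gamma, was found in 8 and 2 cells, and GZMK, another granzyme, in 5 and 0. CCL5 was found in 65.3% with CD3E and 87.2% without.

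**Figure D5:**
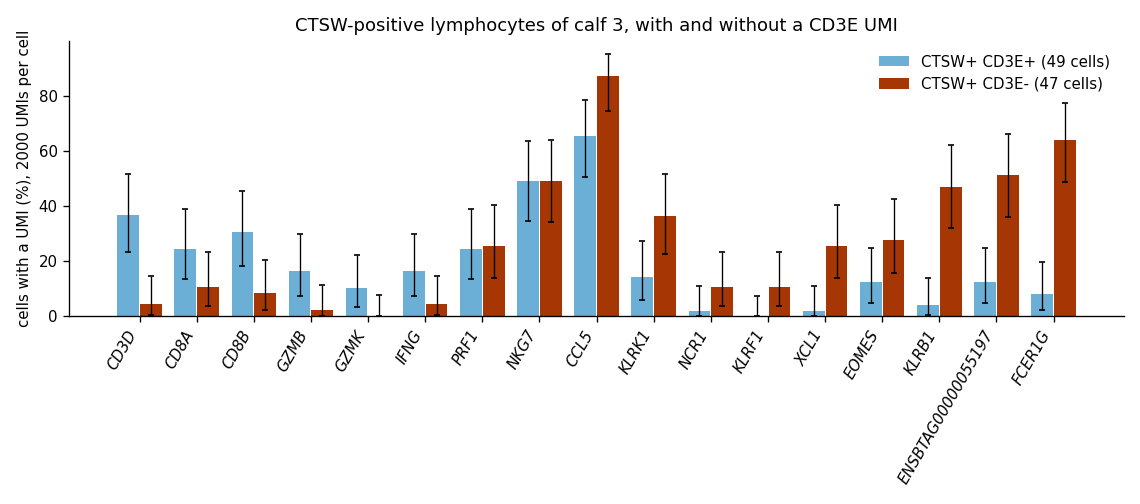
Share of the CTSW-positive lymphocytes of calf 3 with a UMI of other genes after thinning to 2000 UMIs, for 49 cells with and 47 cells without a CD3E UMI; bars start at 0 and error bars are exact 95% intervals for counting error. FCER1G was found in 8.16% and 63.8% and NKG7 in 49.0% and 48.9%.

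The genes most like the effector group were sought by the Pearson correlation, over the 253 thinned lymphocytes of calf 3, between the presence of a UMI and the number of effector genes in the cell, among 2201 genes found in at least 10% of these cells. The cells share 1 library and 1 depth, and no other calf had enough cells to repeat it. CCL5, a chemokine stored by killer cells, came first (r = 0.50), followed by NUCB2 (0.37), SH2D1A, an adaptor of killer cell receptors (0.36), KLRB1 (0.36), ENSBTAG00000037510 (0.34), GIMAP7 (0.33), ENSBTAG00000009943 (0.32), CD69, an activation and residency marker (0.30), HCST, the adaptor through which KLRK1 signals (0.30), and UBD (0.29). The lowest values were those of BOLA-DRA (-0.36), which also set the gate, ENSBTAG00000013919 (-0.34), CD74 (-0.33), CTSH (-0.29) and PLD4 (-0.28).

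Other genes of the killing programme were counted in the same edgeR test, against 4.23% of all genes higher in lymphocytes. A gene was tested if it had at least 10 UMIs over both classes. In this and the later lists, genes without a dendritic UMI thus entered through their lymphocyte UMIs alone and could not come out lower. Of 13 tested partners in granules and killing, 6 were higher and none lower, with a median log2 difference of 2.48. Dendritic cells had no UMI of 3 of these 13. IFNG was at least 42.3-fold higher, with 0, 0 and 75 UMIs in the lymphocytes of calves 1, 2 and 3 and none in dendritic cells. GZMM, a further granzyme, was at least 11.8-fold higher with 21 UMIs, all of calf 3. FASLG, the ligand of the death receptor FAS, was 33.8-fold higher (interval 5.41 to 1401) and STX11, which serves granule fusion, 9.58-fold higher (interval 3.98 to 27.9). For STX11 this holds in calf 3 only. Calf 2 had 0.457 STX11 UMIs per 10000 in lymphocytes against 0.564 in dendritic cells, and calf 1 had none in either class. GZMK, with 10 UMIs in calf 3 and none elsewhere, did not pass.

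Of 19 receptors and adaptors of killer cells, 11 were higher and 1 lower. Their median log2 difference was 3.91, or 2.98 with the 7 genes that dendritic cells lacked set at their floor. SH2D1A, IL2RB, a receptor chain for interleukins that sustain killer cells, KLRB1 and SH2D2A were absent from dendritic cells and at least 123-fold, 89.6-fold, 48.5-fold and 21.4-fold higher in lymphocytes. HCST was 23.5-fold higher (interval 12.8 to 48.1), with 0, 26 and 127 UMIs in lymphocytes and 1, 0 and 10 in dendritic cells. TYROBP, an adaptor that myeloid cells also use, was the 1 gene lower in lymphocytes, with a log2 difference of -2.08 (edgeR adjusted p = 0.000261). NCR1 passed with 18 UMIs of calf 3, while KLRD1 and KLRF1, with 14 and 12 UMIs in lymphocytes and none in dendritic cells, did not.

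Among 10 tested transcription factors of cytotoxic lymphocytes 5 were higher and none lower (median log2 difference 3.75, or 2.79 with 2 genes at their floor). HOPX had 2, 44 and 238 UMIs in the lymphocytes of calves 1, 2 and 3 and 0, 1 and 0 in dendritic cells. EOMES, which drives killer cell differentiation, was at least 29.9-fold higher with 0, 1 and 52 UMIs, IKZF2 was 39.7-fold higher and TOX 27.0-fold higher. TBX21, a close relative of EOMES, had 0, 2 and 11 UMIs and did not pass (edgeR adjusted p = 0.0711). Of 7 chemokine and chemokine receptor genes 3 were higher and none lower, with a median log2 difference of 2.89. CXCR6, a receptor of tissue-resident lymphocytes, was at least 105-fold higher, XCL1 38.3-fold and CCL5 20.3-fold (interval 15.9 to 26.3), while CCL3 and CCL4 did not pass, with 166 and 520 UMIs in the dendritic cells of calf 3.

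Genes of resting and memory lymphocytes were higher as well, 7 of 9 with none lower and a median log2 difference of 3.91. They included TCF7, a factor of resting T cells, with 1, 11 and 113 UMIs in lymphocytes and 1 in dendritic cells, LEF1, S1PR1, which guides exit from tissue, and the interleukin receptor IL7R, with 21, 29 and 943 UMIs against 1, 3 and 86. All 10 tested genes of T cell subsets were higher, with a median log2 difference of 6.94, or 4.62 with 4 genes at their floor. A CD3E UMI let a barcode into the lymphocytes and kept it out of the dendritic cells. Higher T cell genes therefore follow in part from the gates. IL17F, IL17A, CD8B and CD8A, those with the largest fitted differences, had 489, 149, 79 and 57 UMIs in lymphocytes and 1, 0, 0 and 0 in dendritic cells. ENSBTAG00000055197 had 530 and 6, a ratio of 149, above the lower bounds of 84.0, 44.5 and 32.1 for IL17A, CD8B and CD8A, so the order among them is not known. Markers of other cells moved in this comparison too. Of 5 B and plasma cell markers 3 were higher in lymphocytes and 1 lower, and of 5 neutrophil and mast cell markers 3 were higher, KIT, S100A9 and FCN1, and 1 lower. KIT, which early and innate lymphocytes also use, was found in 38 thinned lymphocytes of calf 3, of which 20 had CTSW and 14 had NKG7.

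These lists lean on calves 2 and 3. Without calf 2, 2 of 13 granule partners, 6 of 19 receptors and adaptors, 4 of 10 transcription factors, 3 of 7 chemokine genes, 3 of 9 resting and memory genes and 7 of 10 subset genes were higher. Without calf 3, where fewer genes could be tested, these were 1 of 4, 0 of 8, 1 of 6, 0 of 5, 0 of 3 and 2 of 5. Without calf 1 the counts of higher genes were 6, 11, 5, 3, 7 and 10, equal to those with all calves, and 1 granule partner and 1 transcription factor were then lower.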

How the data were processed

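The authors made 3' gene expression libraries and counted UMIs with Cell Ranger 3.1.0 against the cattle genome ARS-UCD1.2. The deposited matrices hold raw UMI counts per gene and barcode, with no normalization, 1 per calf, before the study's own filters. Replicates are 3 animals, so the spread between calves includes both animal and library. Barcodes were kept at the study's limits (500 to 4000 genes, at most 50000 UMIs, at most 40% mitochondrial UMIs). No doublet caller was run. Lymphocytes and dendritic cells were taken by gates and not by clustering, with limits of 30 keratin, 30 collagen and 10 endothelial UMIs per 10000, and dendritic cells had a UMI of FLT3, FCER1A, CD1E, BATF3, DNASE1L3, XCR1 or CLEC9A, no CD3E and under 10 C1Q UMIs per 10000. Cells with at least 2000 UMIs were thinned to 2000 (seed 1), and shallower cells were left out of shares. Intervals are exact Clopper-Pearson intervals at 95%, and those of ratios are exact binomial intervals of the split of UMIs. UMIs were summed per calf and class and tested with edgeR 4.0.16 in R 4.3.3 (quasi-likelihood, TMM, calf as a block, at least 10 UMIs, gate genes left out, Benjamini-Hochberg over all 9863 genes), after a test on simulated data. DESeq2 1.42.0, other filters and gates, and leaving out each calf were tried as alternatives. The calf is the block because both classes of a calf come from the same animal. The genes and lists were chosen with earlier results of these data known. Of the lists, genes past the threshold with the 4 largest differences were named, and genes named beside them were added after their values were seen.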

Additional observations from a re-analysis of the deposited data

Results flagged for a closer look

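Effector UMIs were also found in barcodes that entered no comparison. In calf 3, 17 barcodes with under 500 genes passed the lymphocyte gate, at a median of 798 UMIs, and held 16 UMIs of the 7 genes. CTSW was found in 7 of these 17 barcodes (41.2%, exact interval 18.4 to 67.1) and CD3E in 6. In calves 1 and 2 there were 0 and 1 such barcodes, with no effector UMI.

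The 472 barcodes that passed the immune gate but exceeded a keratin, collagen or endothelial limit held 189 UMIs of the 7 genes, of which 93 were of CTSW. At least 1 of the 7 genes was found in 37 of these barcodes, CTSW in 22 and CD3E in 41. The part of doublets and of free RNA in these barcodes was not tested.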

How the results depend on the processing

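With 1 dendritic cell in calf 1, 12 in calf 2 and a single calf above 20 thinned lymphocytes, the number of cells outside calf 3 limits every comparison. The 728 genes past the threshold became 144 with DESeq2 and 70 of 1111 tested with filterByExpr, 2423 without the keratin, collagen and endothelial limits, and 37 to 977 when a calf was left out (977 without calf 1, 195 without calf 2 and 37 without calf 3). Without the replicate block, in which the calves are not paired, 741 genes passed and GZMA with them (edgeR adjusted p = 0.0002197), as it did without the lineage limits (0.001841). With DESeq2, CTSW (adjusted p = 9.492e-06) and PRF1 (0.00339) passed, GNLY did not (0.1781), and KLRK1, GZMA and both GZMB genes had no adjusted p. NKG7 ranged from -0.31 to 1.39 on the log2 scale when a calf was left out, changed sign without calf 3 (log2 difference -0.31, edgeR adjusted p = 0.9989), passed without calf 1 (1.39, 0.008474), and changed sign without the lineage limits (-0.87, 0.3976). With every barcode above the BOLA-DRA limit taken as dendritic, NKG7 fell to 0.096 (0.9913). Lymphocytes numbered 829 without the lineage limits, and 34 to 351 when a calf was left out, and dendritic cells 13 to 282; without calf 3 they were 34 and 13. The 32.0% of lymphocytes with at least 2 effector genes became 24.5% at 1000 UMIs and 44.3% unthinned, both means of calves 2 and 3, 8.70% with 2 UMIs required per gene, and 8.23% without the lineage limits, a mean of 3 calves, and no value was had without calf 3. Of 192 shares under other settings, 154 stayed within the counting interval of the reported share. These 192 include shares of dendritic cells, which were at or near 0 for all effector genes but NKG7. The count therefore does not give how stable the lymphocyte shares are. With filterByExpr, of the effector genes only CTSW and NKG7 were tested. CTSW passed under every alternative of the test that was run and was at 0 in dendritic cells throughout, with 29.2% to 43.2% of lymphocytes positive where the share rests on calf 3 alone, as the reported 37.9% does. Where other calves entered the mean as well, which changes the calves along with the setting, it was 40.1% at 1000 UMIs, 45.3% with the BOLA-DRA limit at 60, 54.5% unthinned (41.2% in calf 3 alone) and 10.8% over all 3 calves without the lineage limits.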
